A study of Mus musculus with 16 samples.

Results

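The effect of losing SHP2 was compared between mouse pre-B cells with and without the BCR-ABL1 fusion kinase, gene by gene, over all 16 libraries of the series. The quantity described is the interaction, which is the SHP2-loss effect (null minus wild type) with BCR-ABL1 minus the same effect without it. The rule took all 16 columns of the expression table, summed entries of the same symbol and kept genes with at least 1 FPKM (a read density per gene, scaled to gene length and to the library's mapped fragments) in at least 4 libraries, which left 10210 of 23279 symbols. The 4 groups, of 4 libraries each, were BCR-ABL null (-/-) with SHP2 WT (+/+), BCR-ABL null with SHP2 null (-/-), BCR-ABL WT (+/+) with SHP2 WT, and BCR-ABL WT with SHP2 null. In these labels "BCR-ABL WT" was read as carrying the fusion, since the library protocol names such samples BCR-ABL1. The labels name no way in which the fusion was introduced or SHP2 deleted, and do not tie the 4 libraries of a group to separate mice or cultures. The p-values therefore measure a spread between libraries that may be technical.

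SHP2, encoded by Ptpn11, is a tyrosine phosphatase that links activated receptors and kinases to RAS and the ERK kinases. BCR-ABL1 is a constitutively active tyrosine kinase that drives RAS-ERK, STAT5 and PI3K signalling in leukaemia. Normal pre-B cells depend on interleukin 7 and its receptor for growth, and BCR-ABL1 can replace that signal. Genes such as Dusp6, Spred2 and Etv5 are switched on by ERK, and Dusp6 and Spred2 encode its feedback inhibitors.

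An interaction of 0 on the log2(FPKM + 1) scale means that SHP2 loss shifted a gene equally in both backgrounds, and such a gene is called additive here. A positive value means that SHP2 loss lowered the gene less, or raised it more, in cells with BCR-ABL1. A negative value means the opposite. The expectation quoted for null cells with BCR-ABL1 adds both single shifts to the wild-type level without the fusion on this scale. The added 1 FPKM damps differences of genes near or below that level.

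Summed FPKM ran from 348923 to 443702 per library, and depth in reads is unknown because the files hold no counts. The 13 pre-B markers summed to between 2262 and 2832 FPKM in every library, and none was at 0 throughout a group. Without BCR-ABL1 the sums were 2262 to 2403 FPKM in wild-type and 2549 to 2832 FPKM in null cells, without overlap. With it they were 2388 to 2544 and 2429 to 2707 FPKM, which overlapped. Null replicate 2 without BCR-ABL1 stood apart, with 434 FPKM summed over the 13 listed myeloid markers and 403 FPKM of the macrophage gene Lyz2, against at most 34.3 FPKM of Lyz2 elsewhere. The 9 mast cell markers summed to between 7.81 and 13.6 FPKM in wild-type cells without BCR-ABL1, 0.0537 to 8.74 FPKM in null cells without it, and at most 2.19 FPKM with the fusion. The other marker lists overlapped between the groups or stayed low, with 3.11 to 14.7 FPKM for T and NK cells, 136 to 262 FPKM for the erythroid and megakaryocyte list and 9.69 to 15.1 FPKM for stromal cells. In bulk RNA, fewer cells of a type and less RNA per cell cannot be told apart. The part of these cells in the results was not tested, and values without null replicate 2 are given for some of the results.

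Ptpn11 checked the SHP2 labels. It read 16.7, 17.6, 16.1 and 16.5 FPKM in wild-type cells without BCR-ABL1 and 7.43, 6.81, 2.87 and 6.02 FPKM in the null cells, in the order of replicates 0 to 3. In BCR-ABL1 cells the values were 17.2, 17.1, 15.7 and 18 FPKM with SHP2 intact and 3.56, 3.56, 6.07 and 4.88 FPKM in null cells. Wild-type and null libraries did not overlap in either background. The fall was 1.45 on the log2 scale without the fusion and 1.73 with it, and the interaction was -0.28 ± 0.27 (SE, 95% interval -0.87 to 0.30, limma adjusted p = 0.914). The values cover the whole gene and do not separate its deleted part. The mouse genes Abl1 and Bcr had interactions of -0.18 ± 0.15 and -0.25 ± 0.17 (SE), and neither passed. These values do not check the presence of the fusion.

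The central question was how many genes responded to SHP2 loss differently once BCR-ABL1 was present. By limma, 0 of 10210 genes (0%) passed for the interaction at an adjusted p below 0.05. At an unadjusted p below 0.05 were 591 genes (5.79%), where chance alone gives 510.5. With the replicate number as a block the count stayed at 0, and 1259 genes (12.3%) were at an unadjusted p below 0.05. The smallest adjusted p was 0.0964, or 0.0855 with the block, both for Rnase12. The median standard error of the interaction was 0.14, so the 95% interval spans about 0.30 to either side at a typical gene. For 9562 genes (93.7%) the interval lay within plus or minus 1 on the log2(FPKM + 1) scale. For genes near or below 1 FPKM this bound is wider than 2-fold in expression, because the added 1 FPKM damps their differences.

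SHP2 loss itself was called for 157 genes without BCR-ABL1 (1.54% of those tested, 104 or 1.02% higher and 53 or 0.519% lower) and 32 genes with it (0.313%, 18 higher and 14 lower). With the block these counts were 587 (5.75%) and 48 (0.47%). Without the fusion the count fell to 103, 80 and 102 when null replicate 2, wild-type replicate 2 or wild-type replicate 3 of that background was left out. The count with it fell to 21 and 20 when replicate 2 or 3 of its wild-type cells was left out. A gene past the threshold in the first background and not in the second is not thereby shown to differ, and the direct test is the interaction. Across genes, the effects had an SD of 0.21 without the fusion and 0.14 with it, and Pearson's r between them was 0.26. This r is across 10210 genes of the same 16 libraries, which are not independent replicates. The effects shared their sign in 57.2% of genes.

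**Figure D1:**
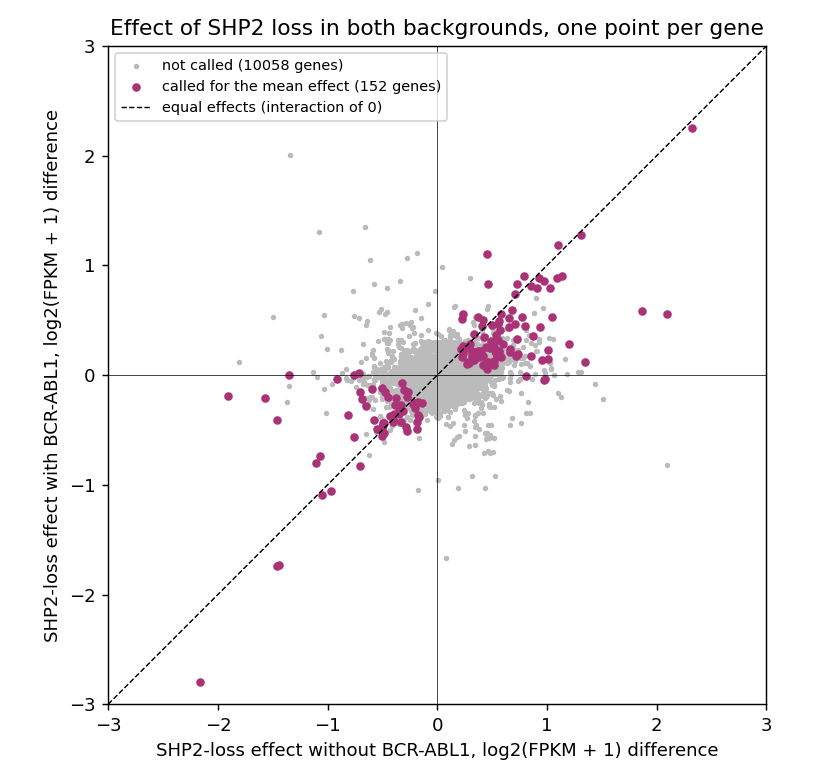
Each point is a gene, placed by its SHP2-loss effect without BCR-ABL1 (horizontal) and with it (vertical), both as log2(FPKM + 1) differences. The cloud is wider along the horizontal axis (SD 0.21 against 0.14), and the 152 genes called for the mean of both effects lie mostly between the horizontal axis and the dashed line of equal effects.

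The genes that SHP2 loss moved on average over both backgrounds were taken next. The mean and the difference of the effects are independent only where both backgrounds are equally noisy, which was not tested, and noisier effects in one background would favour genes with the larger shift there. The counts by size of shift are therefore descriptions. The mean effect was called for 152 genes (1.49%, 92 higher and 60 lower), or 444 (4.35%) with the replicate block and 98 without null replicate 3 with BCR-ABL1. Their median shift in the direction of the mean was 0.52 without BCR-ABL1 and 0.31 with it. The shift was smaller with the fusion in 114 of the 152 genes (75.0%), against 6751 of all 10210 genes (66.1%). At an unadjusted p below 0.05 for the interaction were 48 of the 152, against 5.79% of all genes. Of the 48, 45 had the smaller shift with BCR-ABL1, against 503 of the 591 among all genes. Opposite signs in the backgrounds were seen in 4 of the 152 genes, against 4367 of all 10210. Selection by the mean of both effects favours equal signs, so this count is no evidence of agreement. The interaction interval lay within plus or minus 1 on the log2(FPKM + 1) scale in 127 of the 152. That is a smaller share than the 93.7% of all genes.

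Position split these genes. Chromosome 5, which holds Ptpn11 at 121130533 to 121191397 (GRCm38), carried 35 of the called genes out of 607 tested (5.77%). Chromosome 17 carried 28 of 530 (5.28%), against 1.49% called among all genes tested. In those 63 genes the median shift was 0.50 without and 0.43 with the fusion. Of them 41 (65.1%) had the smaller shift with it, against 66.1% of all genes. In the 81 called genes mapped to other chromosomes the medians were 0.52 and 0.23, and 66 (81.5%) were smaller with it. Those 81 include 15 of the 534 genes tested on chromosome 9 (2.81%). The split was chosen after the values were seen, so these are descriptions without a test.

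Most genes named for the mean effect had similar shifts in both backgrounds, and all of their mean-effect calls remained when any single library was left out. They were named for the smallest adjusted p, so they need not stand for all 152 called genes. The median shifts of those 152 were 0.52 without and 0.31 with the fusion, and 0.52 and 0.23 away from chromosomes 5 and 17. Zfp605, a zinc finger gene on chromosome 5, read 1.93 to 2.14 FPKM with SHP2 intact and 3.72 to 4.27 FPKM in its absence without BCR-ABL1, and 2.34 to 2.98 and 4.57 to 5.25 FPKM with it. Null cells held 195% of the wild-type level without the fusion and 193% with it, and the interaction was 0.03 ± 0.10 (SE, interval -0.18 to 0.24). Its sign flipped after a GC correction (-0.04), so the estimate has no stable direction. Grina read 2.27 to 3.42 and 5.15 to 10.8 FPKM without the fusion, and 3.11 to 3.50 and 6.41 to 7.42 FPKM with it. Tgfbr2, a receptor for TGF-beta, read 8.34 to 12.1 and 17 to 22.1 FPKM without and 8.82 to 15 and 18.3 to 24.3 FPKM with it. Wild-type and null ranges of both genes were apart in each background, with interactions of -0.24 ± 0.20 and -0.12 ± 0.22 (SE). That of Grina was -0.06 without null replicate 2 without BCR-ABL1 and -0.38 without null replicate 3 of that group, and that of Tgfbr2 ran from -0.24 to -0.0048 with single libraries left out (wild-type replicates 2 and 0 with BCR-ABL1).

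Genes lower in null cells were mostly lower in both backgrounds. Hspb8, a small heat shock protein gene on chromosome 5, read 1.79 to 6.63 FPKM with SHP2 intact and 0.0225 to 0.162 FPKM in its absence without BCR-ABL1, and 3.81 to 9.86 and 0.0114 to 0.0769 FPKM with it. Its interaction was -0.64 ± 0.38 (SE) and did not pass. Mid1, a ubiquitin ligase gene on the X chromosome, stood at 27.6% and 25.9% of wild type in null cells (interaction -0.04 ± 0.24). Pop5, a subunit of the RNA-processing enzymes RNase P and MRP, stood at 69.9% and 67.9%, and Bri3bp at 68.8% and 71.3%. Cacna1h, a calcium channel gene, was listed at 0 in 7 of the 8 null libraries, against 0.631 to 1.33 FPKM where SHP2 was intact. Dcpp2 gave 0 FPKM in each of the 8 wild-type libraries against 0.640 to 2.04 FPKM in the null ones. The fitted shifts of these last genes depend on the added 1 FPKM. Hspb8, Mid1 and Cacna1h reached 1 FPKM only in wild-type libraries and Dcpp2 only in null ones. They passed the filter through those libraries alone, so their calls are no separate support. The interaction intervals of Zfp213, Tmed5, Vps33a, Plod3, Acad10 and Hyi also included 0. That of Nnt, the mitochondrial transhydrogenase, ran from -0.42 to -0.02, with null cells at 162% of wild type without the fusion and 137% with it.

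**Figure D2:**
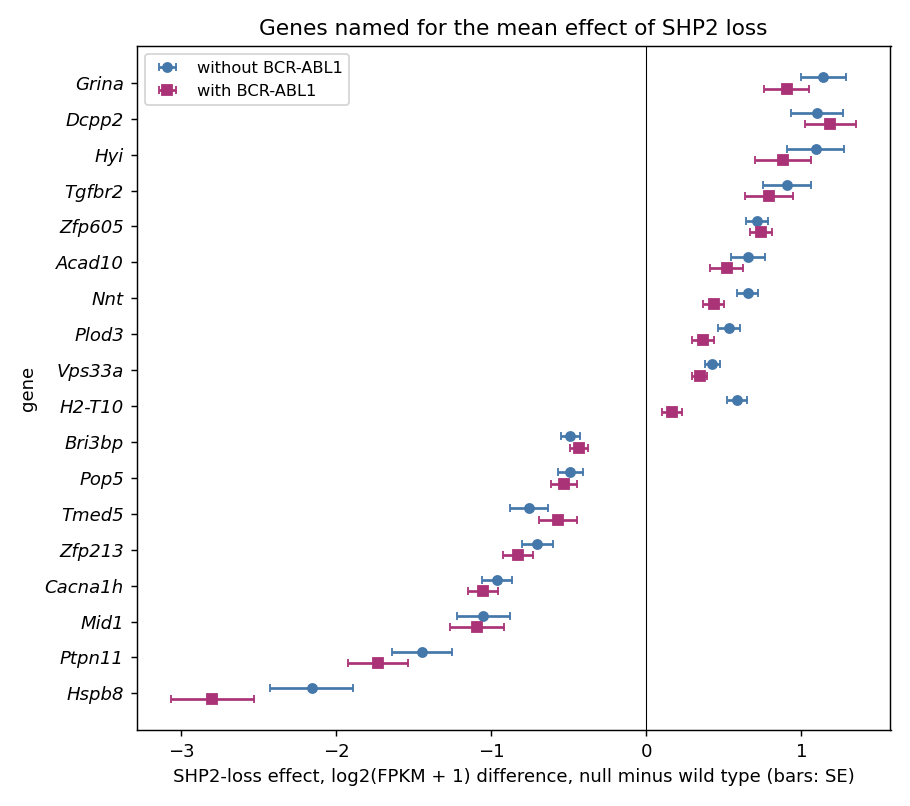
Points give the SHP2-loss effect of each named gene without BCR-ABL1 (circles) and with it (squares) as a log2(FPKM + 1) difference, with the SE. The paired points lie close for most genes and are widest apart for H2-T10 among the genes that rose, 0.58 against 0.17.

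The remaining genes are those with the smallest interaction p, chosen after their values were seen because none passed, so their values are descriptions. Of the 10 leading genes in each direction, all 10 negative genes had their lowest group mean in wild-type cells without BCR-ABL1, and all 10 positive genes had their highest mean there. Since SHP2 loss without BCR-ABL1 and BCR-ABL1 in wild-type cells share those 4 libraries, a level peculiar to them enters both contrasts. The pattern is also partly set by the choice of genes, since the interaction p is built from these group means. Cdhr2 and Galnt3 reached 1 FPKM only in wild-type cells without BCR-ABL1, so they passed the filter through that group alone. The share of all genes with this pattern was not counted.

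Il7r, which encodes the interleukin 7 receptor alpha chain, was among the 10 leading negative genes. It read 5.30, 6.42, 6.31 and 7.13 FPKM in wild-type cells without BCR-ABL1 and 9.88, 11.6, 15.7 and 10.6 FPKM in null cells. Among libraries with the fusion the values were 24.8, 21.9, 25.1 and 29.4 FPKM with SHP2 intact and 24.7, 23.8, 27.6 and 24.1 FPKM in null cells. The groups without the fusion did not overlap, while those with it did. Additive shifts give an expected 45 FPKM in null cells with BCR-ABL1, and 25 FPKM was observed. The interaction was -0.82 ± 0.17 (SE, interval -1.19 to -0.46), with a limma adjusted p = 0.392 (0.0781 to 0.806 over the alternatives). Without null replicate 2 without BCR-ABL1 it was -0.69.

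The other 12 measured genes of the interleukin 7 receptor and JAK-STAT list were less separated. This list and the later ones were chosen with earlier results of these data known, so their counts are descriptions. Of the 13, 12 had negative interactions (60.3% of all genes), with a median of -0.19 against -0.04 over all genes. The list median was -0.11 without null replicate 2 without BCR-ABL1. For the interaction 0 were called and 2 were at an unadjusted p below 0.05 (5.79% of all genes). The second was Stat5a, which transmits the signal of the receptor, at -0.40 ± 0.12 (SE), with null cells at 130% of wild type without the fusion and 95.6% with it. STAT5 target genes were negative in 11 of 13 (60.3% of all genes), with a median of -0.10 (-0.23 without wild-type replicate 0 with BCR-ABL1). Of them 0 were at an unadjusted p below 0.05 (5.79% of all genes). The cytokine-signal inhibitor gene Socs3 stood at -0.69 ± 0.32 and the kinase gene Pim1 at -0.41 ± 0.20 (SE).

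Fam129c, also called Niban3 and expressed in B cells, had the smallest p of the negative genes. It read 12, 11.4, 11.8 and 9.77 FPKM with SHP2 intact and 20.0, 19.6, 26.6 and 27.2 FPKM in null cells without the fusion. Once BCR-ABL1 was present the gene read 24.4, 21.5, 22.5 and 23.5 FPKM with SHP2 intact and 19.2, 24, 20.3 and 26.7 FPKM in null cells. Null cells thus stood at 208% of wild type without BCR-ABL1, with no overlap, and at 98.1% with it. The interaction was -1.01 ± 0.17 (SE, limma adjusted p = 0.102, and 0.0545 to 0.373 over the alternatives).

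Gas7, a growth arrest gene, read 1.45 to 2.35 and 4.06 to 6.97 FPKM without the fusion and 6.26 to 8.98 and 6.17 to 8.02 FPKM with it. Myh10, a nonmuscle myosin heavy chain, read 30.7 to 38.9 and 54.5 to 96.4 FPKM without and 58.7 to 70.9 and 66.5 to 75.6 FPKM with it. Nlrp6, of the NOD-like receptor family, read 0.110 to 0.348 and 1.07 to 3.36 FPKM without and 1.55 to 2.96 and 1.91 to 3.40 FPKM with it. In all of them the null and wild-type ranges were apart only without BCR-ABL1. Gas8, a subunit of the ciliary dynein regulatory complex, and the interferon regulatory factor gene Irf5 had smaller interactions of -0.48 ± 0.12 and -0.44 ± 0.12 (SE).

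Class I histocompatibility genes, which present peptides at the cell surface, leaned the same way. All 18 measured members had negative interactions (all tested genes 60.3%), with a median of -0.36. Their median SHP2-loss effect was 0.45 without BCR-ABL1 and 0.12 with it. For the interaction 0 were called and 6 were at an unadjusted p below 0.05 (5.79% of all genes), or 11 with the replicate block (12.3% of all genes). SHP2 loss without the fusion raised 5 of them by limma at an adjusted p below 0.05 (1.02% of all genes), namely H2-K1, H2-Q4, H2-Q5, Tap1 and Nlrc5. H2-K1 and H2-Q4 lie outside the naming rule and were chosen after their values were seen. With the block 12 of the 18 were called (5.75% of all genes), and SHP2 loss with the fusion raised 0 of 18 (0.313% of all genes called). The call of H2-K1 was lost when any of 5 libraries without BCR-ABL1 was left out (null replicates 2 and 3 and wild-type replicates 0, 2 and 3, adjusted p up to 0.0978), and those of the other 4 remained. The median of the list ran from -0.50 to -0.27 when single libraries were left out.

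Nlrc5 encodes the transactivator of class I genes. It read 18.8, 20.1, 18.8 and 18.5 FPKM with SHP2 intact and 24.1, 23.9, 26.8 and 22.3 FPKM in its absence without BCR-ABL1. The libraries with BCR-ABL1 gave 25.7, 27.7, 26.7 and 28 FPKM with SHP2 intact and 25.7, 26.7, 28.3 and 27.7 FPKM in null cells. The null libraries lay above the wild-type libraries only without the fusion, and the interaction was -0.33 ± 0.09 (SE). Tap1, a subunit of the peptide transporter, had the same interaction size, -0.33 ± 0.10, at 137% and 109% of wild type. H2-T10, which is not among the 18 list members, read 4.29 to 5.07 and 7.53 to 7.92 FPKM without the fusion. With it the gene read 7.2 to 8.8 and 8.41 to 9.46 FPKM (interaction -0.42 ± 0.09). Its rise without the fusion was called (limma adjusted p = 0.000174). H2-Q5 had -0.86 ± 0.23 (SE). H2 genes share near-identical sequence and lie on chromosome 17, so their split of reads is uncertain.

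Interferon response genes were negative in 12 of 13 (60.3% of all genes), with a median of -0.28. For the interaction 0 were called and 2 were at an unadjusted p below 0.05 (5.79% of all genes). By same-numbered libraries the list median was -0.11, -0.07, -0.72 and -0.16 for numbers 0, 1, 2 and 3. Ifi27l2a, an interferon-induced gene, read 7.43 to 21.0 and 23.8 to 42.4 FPKM without the fusion and 22.4 to 34.4 and 31 to 44 FPKM with it. The ranges were apart without BCR-ABL1 and overlapped with it. DNA replication and E2F target genes were negative in 30 of 31 (60.3% of all genes). Their median was -0.17, or -0.11 without null replicate 1 with BCR-ABL1, with 0 called and 5 at an unadjusted p below 0.05 (5.79% of all genes). Uhrf1, which maintains DNA methylation during replication, read 109 to 132 and 140 to 154 FPKM without the fusion and 126 to 142 and 112 to 136 FPKM with it. Cdc45 and Gins2, parts of the replicative helicase, had interactions of -0.25 ± 0.08 and -0.51 ± 0.21 (SE).

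**Figure D3:**
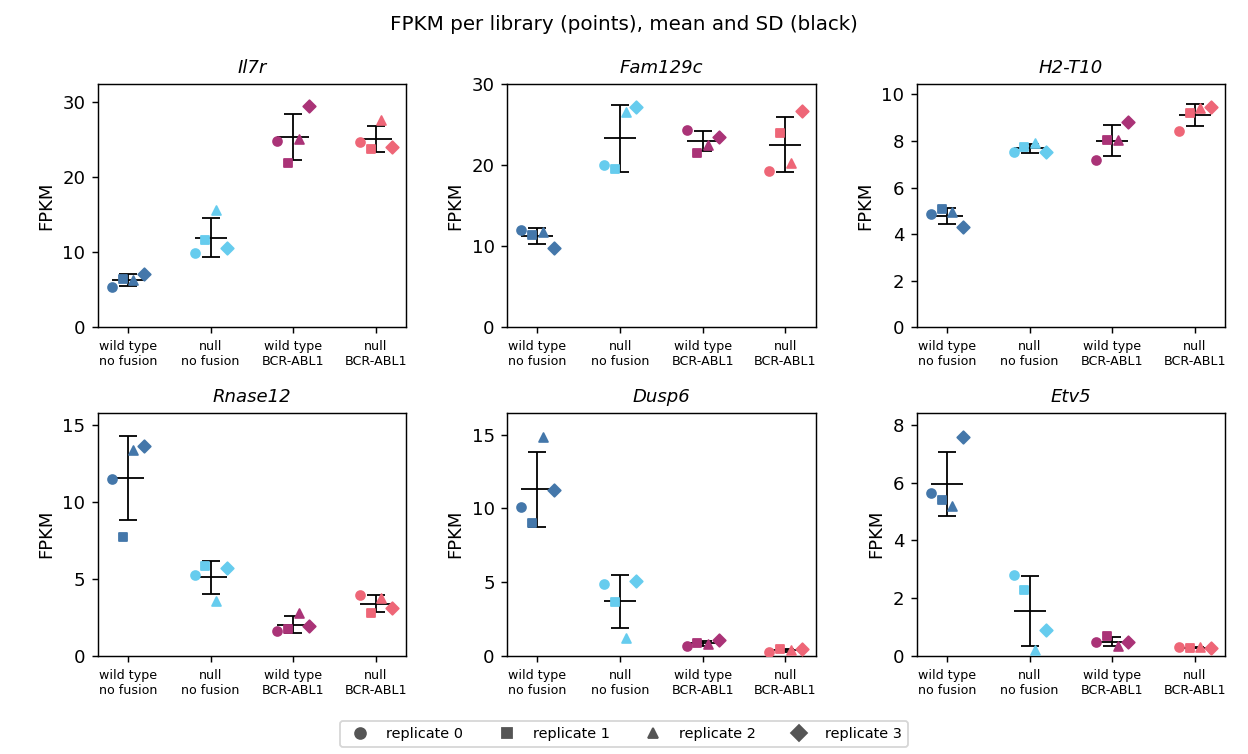
FPKM of 6 genes in each of the 16 libraries by group, with marker shape giving the replicate number and black bars the mean and SD of 4 libraries. Il7r, Fam129c and H2-T10 are lowest and Rnase12, Dusp6 and Etv5 highest in wild-type cells without BCR-ABL1, and Dusp6 and Etv5 read at most 1.11 FPKM in all 8 libraries with the fusion.

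The ERK response genes had positive interactions, and their floor matters for reading them. Of 8 measured members 6 were positive (all genes 39.7%), with a median of 0.43. For the interaction 0 were called and 4 were at an unadjusted p below 0.05 (5.79% of all genes). Dusp6, which dephosphorylates ERK, read 10.1, 9.03, 14.8 and 11.2 FPKM with SHP2 intact and 4.88, 3.68, 1.21 and 5.12 FPKM in its absence without BCR-ABL1. In the background with the fusion it stood at 0.710, 0.888, 0.786 and 1.11 FPKM with SHP2 intact and 0.255, 0.446, 0.421 and 0.501 FPKM in null cells. Wild-type and null libraries did not overlap in either background. Null cells held 33.0% of the wild-type level without BCR-ABL1 and 46.5% with it.

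On the log2(FPKM + 1) scale the Dusp6 effects were -1.46 without (called, limma adjusted p = 0.00435) and -0.41 with the fusion (not called), an interaction of 1.05 ± 0.34 (SE). With 0.1 FPKM added in place of 1, the interaction was 0.78 ± 0.48. It was 0.72 without null replicate 2, the library with 434 FPKM of myeloid markers. The additive expectation for null cells with BCR-ABL1 was below 0 FPKM for Dusp6, Etv5 and Spred2, which no level can reach, and for 22 genes (0.215%) in all. For those genes an interaction of 0 on this scale was out of reach.

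Etv5, an ETS transcription factor gene, read 5.62, 5.41, 5.19 and 7.58 FPKM with SHP2 intact and 2.82, 2.30, 0.214 and 0.887 FPKM in its absence without BCR-ABL1. Where BCR-ABL1 was present, the levels were 0.483, 0.695, 0.339 and 0.476 FPKM with SHP2 intact and 0.298, 0.291, 0.310 and 0.273 FPKM in null cells. Null cells stood at 26.1% and 58.8% of wild type, with no overlap in either background. The interaction was 1.36 ± 0.36 (SE) and rose to 1.73 ± 0.69 with 0.1 FPKM added. Without null replicate 2 without BCR-ABL1 it was 1.05. Spred2, a RAS pathway inhibitor, stood at 42.0% and 61.2% (interaction 0.55 ± 0.14).

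The starts of Dusp6, Etv5 and Il7r are shown because these genes changed with SHP2 loss without BCR-ABL1 and differ in the sign of the interaction. Windows of 300 bases, most of them before the gene's start, come from RefSeq on GRCm38.p6, at chr10:99262981-99263280 on the plus strand for Dusp6, chr16:22439521-22439820 on the minus strand for Etv5 and chr15:9529827-9530126 on the minus strand for Il7r. Capitals mark a FOXO core, GTAAACA.
Dusp6: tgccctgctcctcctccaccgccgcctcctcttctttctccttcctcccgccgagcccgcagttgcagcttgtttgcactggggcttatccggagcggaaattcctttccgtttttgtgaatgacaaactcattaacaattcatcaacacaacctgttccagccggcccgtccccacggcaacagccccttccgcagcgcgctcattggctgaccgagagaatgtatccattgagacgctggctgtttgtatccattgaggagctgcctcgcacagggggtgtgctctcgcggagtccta
Etv5: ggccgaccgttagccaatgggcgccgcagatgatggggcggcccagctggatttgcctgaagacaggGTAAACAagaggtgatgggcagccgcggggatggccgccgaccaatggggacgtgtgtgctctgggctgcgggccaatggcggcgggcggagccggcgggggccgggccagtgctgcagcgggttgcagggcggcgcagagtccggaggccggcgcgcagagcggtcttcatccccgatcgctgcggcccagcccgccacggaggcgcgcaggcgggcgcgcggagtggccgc
Il7r: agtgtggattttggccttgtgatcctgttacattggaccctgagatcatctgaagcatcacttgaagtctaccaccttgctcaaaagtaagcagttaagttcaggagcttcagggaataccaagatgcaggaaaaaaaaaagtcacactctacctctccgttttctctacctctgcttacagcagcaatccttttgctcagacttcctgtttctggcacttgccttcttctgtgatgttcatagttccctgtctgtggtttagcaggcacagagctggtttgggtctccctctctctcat
On both strands the ETS motif CCGGAA, the FOXO core and the cyclic AMP response element TGACGTCA were searched. Only these exact letters counted, so shorter or variant sites were not searched. The FOXO core had 1 match, in Etv5, and the other motifs had none in these windows. A second Etv5 window (chr16:22438319-22438618) and the Spred2 window, which are not shown, held none of these motifs. Of all 32851 windows, 14.9% held the ETS motif, 3.65% the FOXO core and 1.79% the response element. A match or its absence in these windows describes letters only.

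Rnase12, of the ribonuclease A family, had the smallest interaction p of all genes. It read 11.5, 7.74, 13.4 and 13.6 FPKM with SHP2 intact and 5.29, 5.83, 3.58 and 5.73 FPKM in its absence without BCR-ABL1. Cells with the fusion held 1.61, 1.78, 2.82 and 1.94 FPKM with SHP2 intact and 3.95, 2.77, 3.77 and 3.15 FPKM in null cells. SHP2 loss lowered it without the fusion (limma adjusted p = 0.00456), with no overlap, while with the fusion the null mean was 167% of wild type and the ranges overlapped. The additive expectation was 0.472 FPKM against 3.39 FPKM observed. The interaction was 1.57 ± 0.24 (SE, limma adjusted p = 0.0964), and 1.44 without null replicate 2 without BCR-ABL1. It passed with array weights (0.0334), without wild-type replicate 1 without BCR-ABL1 (0.00776) and without wild-type replicate 2 with BCR-ABL1 (0.0452), and adjusted p over the alternatives ran up to 0.346.

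Cdhr2 (a cadherin-related gene), Ffar2 (a receptor for short-chain fatty acids), Itgal (the alpha chain of the integrin LFA-1) and Galnt3 (an enzyme of O-glycosylation) fell to 34.5%, 34.7%, 45.6% and 37.0% of wild type in null cells without the fusion. All 4 falls passed in limma. Cdhr2 and Galnt3 had passed the filter only through the wild-type cells of this contrast, so their calls are no separate support. With the fusion their null means were 169%, 92.4%, 103% and 98.8% of wild type, at mean levels of 0.136 to 0.759 FPKM. The additive expectation was below 0 FPKM for Cdhr2, Ffar2 and Galnt3, as for Tmem119 and Cma1, so an interaction of 0 was out of reach for these genes too. Tmem119, a membrane protein gene, was at 20.7% without and 29.9% with BCR-ABL1, so its interaction of 1.72 ± 0.43 (SE) sits on a level that fell to at most 0.243 FPKM with the fusion.

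Cma1, the mast cell chymase gene, read 2.10, 3.98, 3.29 and 2.52 FPKM with SHP2 intact and 0.594, 0.0204, 1.75 and 0.246 FPKM in its absence without BCR-ABL1, and was listed at 0 in all 8 libraries with it. Its interaction of 1.35 ± 0.31 (SE) is thus the SHP2-loss effect without the fusion, and no fold can be given with it. Cma1 is itself a marker on the mast cell list, which summed to 7.81 to 13.6 FPKM in these wild-type libraries and whose part was not tested. Endou, an endonuclease gene, and Alkbh5, which removes methyl groups from adenosines in RNA, read at least 0.815 FPKM in every library. Endou read 3.89 to 8 and 0.815 to 3.16 FPKM without the fusion and 2.49 to 3.84 and 3.29 to 6.06 FPKM with it. Alkbh5 read 15.7 to 20.4 and 13.4 to 15.9 FPKM without and 14.4 to 15.4 and 16.4 to 19.9 FPKM with it, so null cells were lower in the first background and higher in the second.

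Glycolysis genes gave the largest median of the 23 pathway lists. The lists were chosen with earlier results of these data known, so this ranking and the counts are descriptions. Of 20 measured members 19 had positive interactions (39.7% of all genes), with a median of 0.79 and 0 called. At an unadjusted p below 0.05 were 10 (5.79% of all genes), or 16 with the replicate block (12.3% of all genes). The median SHP2-loss effect was -0.45 without BCR-ABL1 and 0.31 with it, and 0 members were called in either. By same-numbered libraries the list median was 0.11, 0.41, 1.02 and 1.55 for numbers 0, 1, 2 and 3. Leaving out single libraries moved it between 0.57 and 0.98.

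Slc16a3, the lactate exporter MCT4, varied widely between libraries of a group. It read 0.457, 0.750, 5.47 and 12.6 FPKM with SHP2 intact and 0.465, 0.769, 0.417 and 0.458 FPKM in its absence without BCR-ABL1. In BCR-ABL1 cells the values were 0.332, 0.317, 6.59 and 0.418 FPKM with SHP2 intact and 3.90, 5.01, 13.7 and 10.4 FPKM in null cells. Replicates 2 and 3 of the first group and replicate 2 of the third stood high, and the null libraries with BCR-ABL1 overlapped the wild-type ones through that replicate. The interaction of 3.36 ± 0.94 (SE) did not pass (limma adjusted p = 0.606).

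Hk2, the first enzyme of glycolysis, read 9.67 to 13.7 and 7.12 to 8.82 FPKM without the fusion and 7.47 to 9.37 and 8.53 to 12.6 FPKM with it. The interaction was 0.67 ± 0.17 (SE), with null cells at 70.6% of wild type in the first background and 120% in the second. The glucose transporter gene Slc2a3 stood at 66.5% and 116%. Txnip, which restrains glucose uptake and is counted here with the FOXO targets, stood at 82.5% and 144%, with an interaction of 0.73 ± 0.23. That list as a whole was near 0 (10 of 22 positive against 39.7% of all genes, median -0.01).

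**Figure D4:**
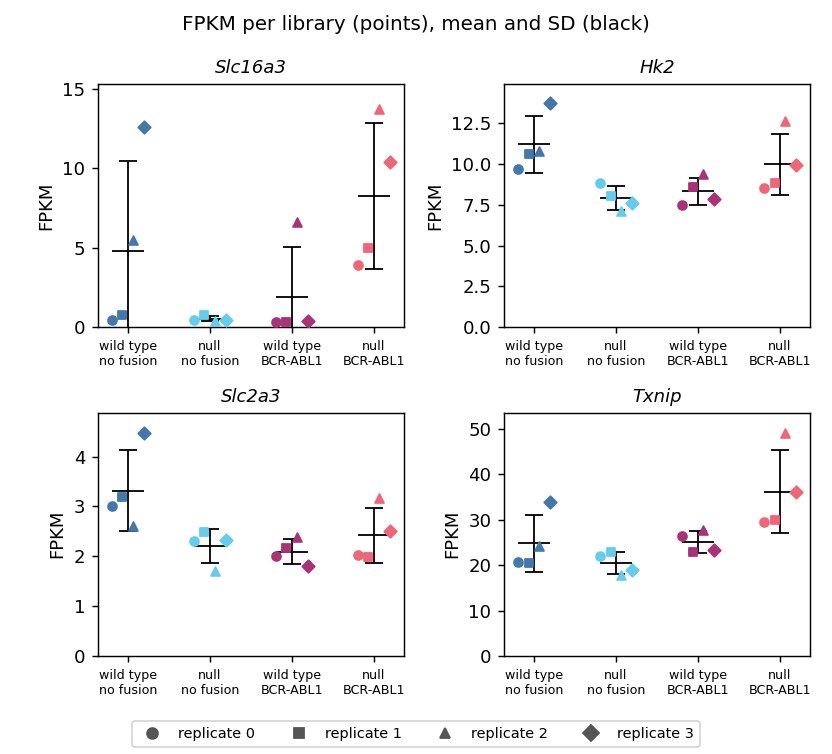
FPKM of 4 genes of glucose use in each library by group, with marker shape giving the replicate number and black bars the mean and SD of 4 libraries, drawn from 0 upward where the SD exceeds the mean. Slc16a3 reads at least 3.90 FPKM in all null libraries with BCR-ABL1 and in 3 wild-type libraries, and the SD bars of the other genes are wide where replicates 2 and 3 stand apart.

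Myc and its antagonists did not pass for the interaction. Myc had 0.10 ± 0.27 (SE, interval -0.48 to 0.68), with null cells at 83.4% and 88.8% of wild type. Mxd3 and Mxd4, which encode repressors that oppose MYC, had -0.46 ± 0.19 and -0.46 ± 0.23. Mxd3 read 7.94 to 10.1 and 12.5 to 14.2 FPKM without the fusion and 11.2 to 14.2 and 8.91 to 16.2 FPKM with it, so its groups were apart only without BCR-ABL1. The cell cycle inhibitor gene Cdkn2d followed, at 140% and 108% of wild type (interaction -0.35 ± 0.11), as did the ETS factor gene Erg, at 168% and 112% (-0.55 ± 0.21).

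**Figure D5:**
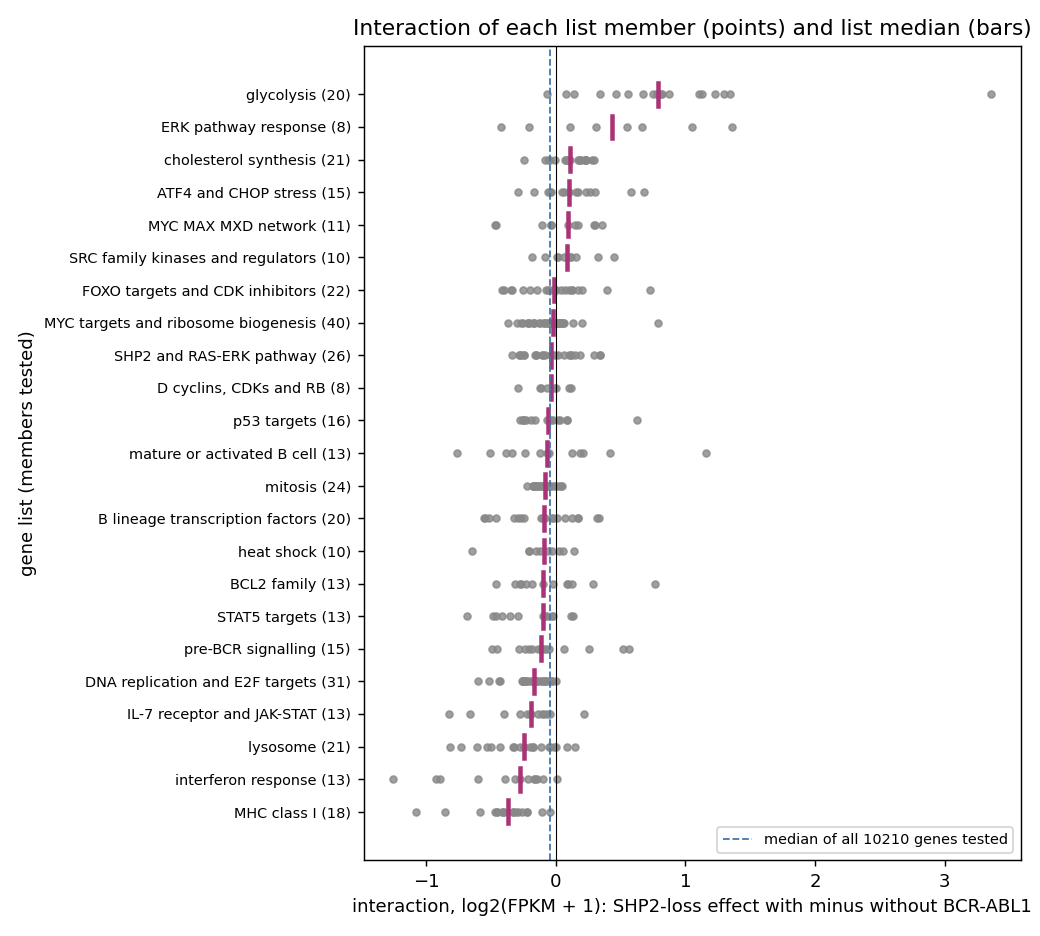
Each grey point is the interaction of a list member on the log2(FPKM + 1) scale and each bar the list median, with the number of tested members in parentheses and the median of all 10210 genes dashed. Glycolysis (0.79) and ERK response (0.43) lie furthest to the right and MHC class I (-0.36) furthest to the left.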

How the data were processed

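PolyA RNA of 16 mouse pre-B cell libraries was sequenced, and the authors deposited FPKM values per gene symbol, 1 column per library. Per the submitters' processing notes, Bowtie and Cufflinks were used with build mm10 (GRCm38), without stated versions; strand handling and annotation are not stated. Entries of the same symbol were summed (23758 entries, 254 repeated symbols), which can merge copies. Differences of log2(FPKM + 1), which understate changes of low genes, were fitted by limma 3.58.1 (R 4.3.3) with 4 group means, a trended prior variance and Benjamini-Hochberg adjustment over 10210 genes. Tests were two-sided and called at an adjusted p below 0.05. The fitting code was tested on simulated data. FPKM carry no counts, so no counting error can be given.

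Replicate numbers 0 to 3 are shared by the groups. Same-numbered libraries deviated together in 23 of 24 pairs (r over 0.1; lowest 0.0549, highest 0.783), and the labels do not say that a number marks a batch, so the block is an alternative.

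Ptpn11, Abl1, Bcr, Myc, Mxd3, Mxd4 and Dusp6 were always named. The rule added called interaction genes (up to 15 per direction; there were none), the 10 genes per direction with the smallest adjusted p for the mean effect and up to 3 members of each of 23 pathway lists, without predicted, RIKEN or receptor segment genes and small RNAs, and allowed omissions for length. The members and lists were chosen with earlier results of these data known. A further 6 lists hold cell type markers. Gene positions come from GENCODE and promoter windows from RefSeq (GRCm38.p6). Python 3.11.15, numpy 2.4.6, pandas 2.3.3 and matplotlib 3.10.9 were used.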

Additional observations from a re-analysis of the deposited data

Results flagged for a closer look

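In 232 sets of 4 libraries (58 genes by 4 groups) a single library stood far from the other 3 in 11. Chance flags about 5% of such sets, and 11 of 232 is no more than that share. Without BCR-ABL1, the null cells gave 5 of them. Abl1 read 15.82 FPKM in replicate 3 against 18.43 to 18.85 in the others, Cdhr2 0.121 FPKM in replicate 2 against 0.5393 to 0.6131 in the others, Gas7 6.966 FPKM in replicate 3 against 4.064 to 4.323, and Tmed5 17.36 FPKM in replicate 3 against 12.98 to 13.57. Slc16a3 read 0.7686 FPKM in replicate 1 of the same group against 0.4174 to 0.4652. In wild-type cells without BCR-ABL1, Mxd4 read 5.974 FPKM in replicate 0 against 8.049 to 8.397, and Nlrc5 20.13 FPKM in replicate 1 against 18.53 to 18.8. In wild-type cells with BCR-ABL1, replicate 2 read 6.592 FPKM of Slc16a3 against 0.3174 to 0.4183 and 5.972 FPKM of Zfp213 against 4.307 to 4.461. In null cells with BCR-ABL1, Tmem119 read 0.09648 FPKM in replicate 2 against 0.04918 to 0.05681, and Cacna1h 0.002353 FPKM in replicate 3 with the others listed at 0. Of these libraries, the high Slc16a3 value bears on the glycolysis list, whose median interaction stayed between 0.57 and 0.98 when any single library was left out. No cause was tested for these values.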

How the results depend on the processing

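Over 30 alternatives, of which linear FPKM was run for the interaction only, the interaction count stayed at 0 except under those given here: 3 with no filter (Tpsb2, Mcpt2 and Mvb12b), 2 with array weights (Rnase12 and Galnt3), and 0 to 1 with single libraries left out. The single call was Cma1 without null replicate 2 without BCR-ABL1, and Rnase12 without wild-type replicate 1 without it or wild-type replicate 2 with it. With single libraries left out, SHP2 loss with BCR-ABL1 was called for 20 to 35 genes, SHP2 loss without it for 80 to 164 and the mean effect for 98 to 189. At a mean of at least 5 FPKM the counts were 11, 70 and 68, and 644 (without BCR-ABL1) and 349 (mean) with array weights. Weights for libraries thus gave 644 against 157 calls, the cause of which was not tested. Counts with the replicate block were 0 for the interaction, 48 for SHP2 loss with BCR-ABL1, 587 without it and 444 for the mean effect. A replicate block without null replicate 2 without BCR-ABL1, chosen after seeing the data, gave 4 (Rnase12, Cdhr2, Cma1 and Itgal), 68, 304 and 416. Interactions of 51 of 58 named genes kept their sign throughout. The signs of small estimates flipped: Myc to -0.0831 with array weights (-0.0396 to 0.267 with single libraries left out), Zfp605 to -0.00635 with 0.1 FPKM added and -0.045 after GC correction (-0.00224 to 0.083), Dcpp2 (-0.0424 to 0.255), Cacna1h to 0.0613 and Zfp213 to 0.0151 after GC correction, Pop5 to 0.00208 after quantile normalization (-0.1001 to 0.00197) and Mid1 to 0.0241 after GC correction (-0.156 to 0.0777). No interaction was called, so the planned split of calls by another band gave no value. Depth in reads is unknown, which limits genes near 0 FPKM most.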

Other observations

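Lysosome genes had negative interactions in 18 of 21 (60.3% of all genes; median -0.24), and SHP2 loss without BCR-ABL1 raised 1 of them by limma at an adjusted p below 0.05 (1.02% of all genes). Leaving out null replicate 2 without BCR-ABL1, the library with 434 FPKM of myeloid markers, moved the median to -0.09. Pre-BCR signalling, B lineage transcription factors and mature or activated B cell genes had medians of -0.11, -0.09 and -0.06, and mitosis, p53 targets, the BCL2 family and heat shock genes had medians of -0.09, -0.06, -0.10 and -0.09. Cholesterol synthesis was positive in 16 of 21 (39.7% of all genes), with a median of 0.11, or -0.03 without null replicate 3 without BCR-ABL1. ATF4 and CHOP stress, SRC family kinases and the MYC network had medians of 0.10, 0.09 and 0.10. MYC targets, D cyclins, and SHP2 and RAS-ERK pathway members had medians of -0.02, -0.04 and -0.03. With single libraries left out, the sign of the median flipped for cholesterol synthesis, B lineage transcription factors (0.02 without wild-type replicate 1 with BCR-ABL1), mature or activated B cell genes (0.11 without wild-type replicate 0 with it) and MYC targets (0.01 without null replicate 3 without it), and the other lists named here kept theirs. The positive medians fell to 0.02 for ATF4 and CHOP stress (without null replicate 3 without BCR-ABL1), 0.01 for SRC family kinases (without null replicate 2 without it) and 0.0014 for the MYC network (without wild-type replicate 0 with it). Of the negative ones, -0.04 was reached by mitosis (without wild-type replicate 0 with BCR-ABL1), the BCL2 family (without null replicate 2 without it) and heat shock (without null replicate 3 without it), -0.07 by pre-BCR signalling (without wild-type replicate 3 with it), -0.0090 by D cyclins (without null replicate 2 without it) and -0.0015 by SHP2 and RAS-ERK members (without null replicate 1 with it). The p53 target median reached -0.11 without null replicate 3 without it. All genes together had a median of -0.04, and 0 members of these lists were called for the interaction.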
